A study of Rattus norvegicus with 7 samples.

Results

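Polyamines (putrescine, spermidine and spermine) are small cations that bind RNA and DNA and are needed for growth and translation, and 10 genes of their synthesis, control and breakdown were followed here in rat oral epithelial cells exposed to sodium fluoride (NaF). Ornithine decarboxylase (Odc1), S-adenosylmethionine decarboxylase (Amd1), spermidine synthase (Srm) and spermine synthase (Sms) make them. Antizymes (Oaz1, Oaz2) bind ornithine decarboxylase and send it to the proteasome, and the antizyme inhibitor (Azin1) releases it. Spermidine/spermine acetyltransferase (Sat1), spermine oxidase (Smox) and polyamine oxidase (Paox) break them down. In cells of many tissues Odc1 and Sat1 are known as genes that respond fast to growth factors and stress. Every probe set with 1 of these symbols, and no other, in the platform annotation was taken, which gave 14 of the 31099 probe sets on the array for 10 of its 14218 named genes. Of these, 12 probe sets of 9 genes were among the 36.6% with the highest signal on any array, which were tested. Smox had only a dim probe set of its own, and its values are given without a place in the counts.

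Gene expression in ROE2 cells had been measured on 7 Affymetrix rat genome arrays to look for genes involved in the cell death that NaF causes. The arrays held cells exposed to 2 mM NaF for 3, 6 and 12 h and cells given vehicle (sterilized water) for 3, 6 and 12 h, and 1 further vehicle array labelled as control, which the study's methods place at 0 h. ROE2 is 1 immortal line from the tongue of an 18-day-old fetus of a transgenic Wistar rat that carries a temperature-sensitive SV40 large T-antigen gene, so all 7 arrays share that transgene. The cells were grown at 33 °C, moved to 37 °C for 24 h in medium with 2% serum and then exposed at 37 °C. Each array held RNA pooled from independent experiments, and each combination of agent and time had 1 array. The values are log2 signals, on which a difference of 1 is a doubling. Changes in a NaF array are its difference from the vehicle mean (4 arrays) with the standard error (SE) of the limma fit, and folds set it over vehicle cells of the same hour. The adjusted p (limma, Benjamini-Hochberg over all tested probe sets, threshold 0.05) rests on the spread between the 4 vehicle arrays, which differ in time, and takes the lone NaF array to vary like them. No condition had a replicate array. Levels of different probe sets are not set against each other.

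The vehicle arrays correlated at r = 0.9961 to 0.9987, and the median log2 signal lay between 5.325 and 5.352 over the 7 arrays. The gap between the 3′ and 5′ probe sets of actin, a sign of RNA quality, was 1.77 to 2.39 in NaF arrays and 1.53 to 2.83 in vehicle arrays. The gap of 2.83 was that of the 3 h vehicle array. The 5′ probe set read 11.25, 11.83 and 11.13 at 3, 6 and 12 h of NaF. On vehicle it read 11.78 on the control array and 10.82, 12.23 and 12.19 at 3, 6 and 12 h. The control probe set for 5S rRNA read 5.67, 6.65 and 6.0 at 3, 6 and 12 h of NaF, against 4.9 on the control array and 5.46, 5.09 and 5.42 at 3, 6 and 12 h of vehicle, so that all NaF arrays lay above all vehicle arrays. Of 10 epithelial markers, 8 were among the tested probe sets, with Krt5 at 13.57 and Cdh1 at 12.13 in vehicle cells, whereas Krt18 (2.98) and Krt19 (3.06) were dim. None of the 4 leukocyte or 3 endothelial markers on the array was among them, which left Vim of 5 mesenchymal markers and Myh1 of 5 muscle markers. The log2 of the summed signal of the epithelial list was 15.22 to 15.45 in NaF arrays and 15.45 to 15.5 in vehicle arrays. That of the muscle list was 10.3 to 10.62 in NaF arrays and 9.81 to 10.11 in vehicle arrays, and that of the mesenchymal list 10.25 to 11.38 in NaF arrays and 11.36 to 11.43 in vehicle arrays. The part of these shifts in the changes of the polyamine genes was not tested. In RNA of a whole culture, fewer cells of a kind and less RNA per cell cannot be told apart.

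Synthesis moved in opposite directions at its 2 decarboxylases. Odc1, the first and rate-limiting enzyme of the pathway, was increased at all 3 times and most at 12 h, and Amd1, which makes the aminopropyl donor for spermidine and spermine, was decreased at all 3 times and most at 6 h. At 12 h the synthases that use this donor also parted, Srm being higher and Sms lower.

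The log2 signal of Odc1 was 11.82, 12.43 and 12.74 at 3, 6 and 12 h of NaF, against 11.26 on the control array and 11.26, 11.23 and 11.03 at 3, 6 and 12 h of vehicle. The NaF arrays all lay above the vehicle arrays and climbed with time. Against the vehicle mean, Odc1 rose by 0.62 at 3 h (adjusted p = 0.025), by 1.24 at 6 h (adjusted p = 0.001) and by 1.54 at 12 h (adjusted p = 0.00027; SE 0.11 each, limma). Set over vehicle of the same time, signals were 1.47, 2.31 and 3.27 times as high. In the 12 h pair 157 of all tested probe sets stood higher by this measure. That pair uses the lowest vehicle array of Odc1 (11.03), and its difference was 1.71, against 1.54 from the vehicle mean. The 3 h change was the least secure: it was 0.64 without the 3 h vehicle array (limma adjusted p = 0.059), 0.63 without the 6 h one (0.099) and 0.64 without the control array (0.062), and its adjusted p ran from 0.0092 to 0.11 over 9 other settings. The increase between 3 h and 12 h of NaF was itself past the threshold (0.92, SE 0.13, limma adjusted p = 0.0038), while vehicle cells differed by -0.23 between these times. Between 6 h and 12 h the difference of 0.30 (SE 0.13) did not pass (limma adjusted p = 0.12), though it did without the 12 h vehicle array (limma adjusted p = 0.045). That array enters this contrast only through the spread, and the difference stayed at 0.30.

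Amd1 gave 8.98, 8.27 and 9.05 at 3, 6 and 12 h of NaF, against 9.58 on the control array and 9.59, 9.54 and 9.58 at 3, 6 and 12 h of vehicle. The 4 vehicle arrays were almost level and all 3 NaF arrays lay below them, the 6 h array lowest. The change against the vehicle mean was -0.59 at 3 h (limma adjusted p = 0.0058), -1.30 at 6 h (0.00043) and -0.52 at 12 h (0.00096), with an SE of 0.06 each. Signals were lower than same-time vehicle by 1.53-fold, 2.4-fold and 1.45-fold. The return after 6 h was past the threshold, as the 12 h array stood 0.77 above the 6 h array (SE 0.08, limma adjusted p = 0.0024), whereas 12 h and 3 h of NaF differed by 0.07 (SE 0.08, limma adjusted p = 0.47). The 6 h comparison was added after the values had been seen. In a fit that took the 3 NaF arrays as one group against the 4 vehicle arrays, Odc1 (1.13, SE 0.20, limma adjusted p = 0.023) and Amd1 (-0.81, SE 0.18, limma adjusted p = 0.038) were the only members counted as passing, where 4.26% of the 7653 tested genes passed upwards and 4.66% downwards. Both calls of that fit were lost without any 1 vehicle array (Odc1 1.08 to 1.16, limma adjusted p = 0.068 to 0.087, and Amd1 -0.82 to -0.80, limma adjusted p = 0.10 to 0.12), and that of Odc1 also without the 6 h NaF array (1.08, limma adjusted p = 0.096). With time as a block, which pairs NaF and vehicle arrays by hour and leaves out the control array, neither passed (Odc1 1.16, limma adjusted p = 0.14, and Amd1 -0.80, limma adjusted p = 0.15). Both calls were already lost without the control array alone (limma adjusted p = 0.077 for Odc1 and 0.10 for Amd1), so this loss is not that of the pairing alone.

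Spermidine synthase, Srm, was at 9.94, 10.13 and 10.47 at 3, 6 and 12 h of NaF, against 10.05 on the control array and 10.00, 10.16 and 10.13 at 3, 6 and 12 h of vehicle. Only the 12 h NaF array left the range of the vehicle arrays upwards, and the 3 h array lay just under it. The change was -0.15 at 3 h (limma adjusted p = 0.33), 0.04 at 6 h (0.71) and 0.39 at 12 h (0.0086; SE 0.08). The 12 h signal was 1.27-fold over same-time vehicle. Srm at 12 h also exceeded its 3 h level in NaF cells by 0.53 (SE 0.10, limma adjusted p = 0.0088) and its 6 h level by 0.34 (SE 0.10, limma adjusted p = 0.043), the second of which was lost without the 6 h vehicle (limma adjusted p = 0.072), 12 h vehicle (0.074) or control array (0.065) and with every probe set of the array tested (0.12).

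Spermine synthase, Sms, had 2 tested probe sets that gave the same course. The brighter read 9.82, 9.85 and 9.22 at 3, 6 and 12 h of NaF, against 9.74 on the control array and 9.78, 9.73 and 9.71 at 3, 6 and 12 h of vehicle. The other read 8.28, 8.28 and 7.65 at 3, 6 and 12 h of NaF, against 8.39 on the control array and 8.28, 8.44 and 8.23 at 3, 6 and 12 h of vehicle. On both, the 12 h NaF array alone stood clearly under the vehicle arrays. The fall at 12 h was -0.52 (SE 0.06, limma adjusted p = 0.0011) and -0.69 (SE 0.09, limma adjusted p = 0.0019), and no change at 3 or 6 h passed (limma adjusted p = 0.20 to 0.77). The drop between 6 h and 12 h of NaF was -0.63 on either probe set (limma adjusted p = 0.0038 and 0.011).

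**Figure D1:**
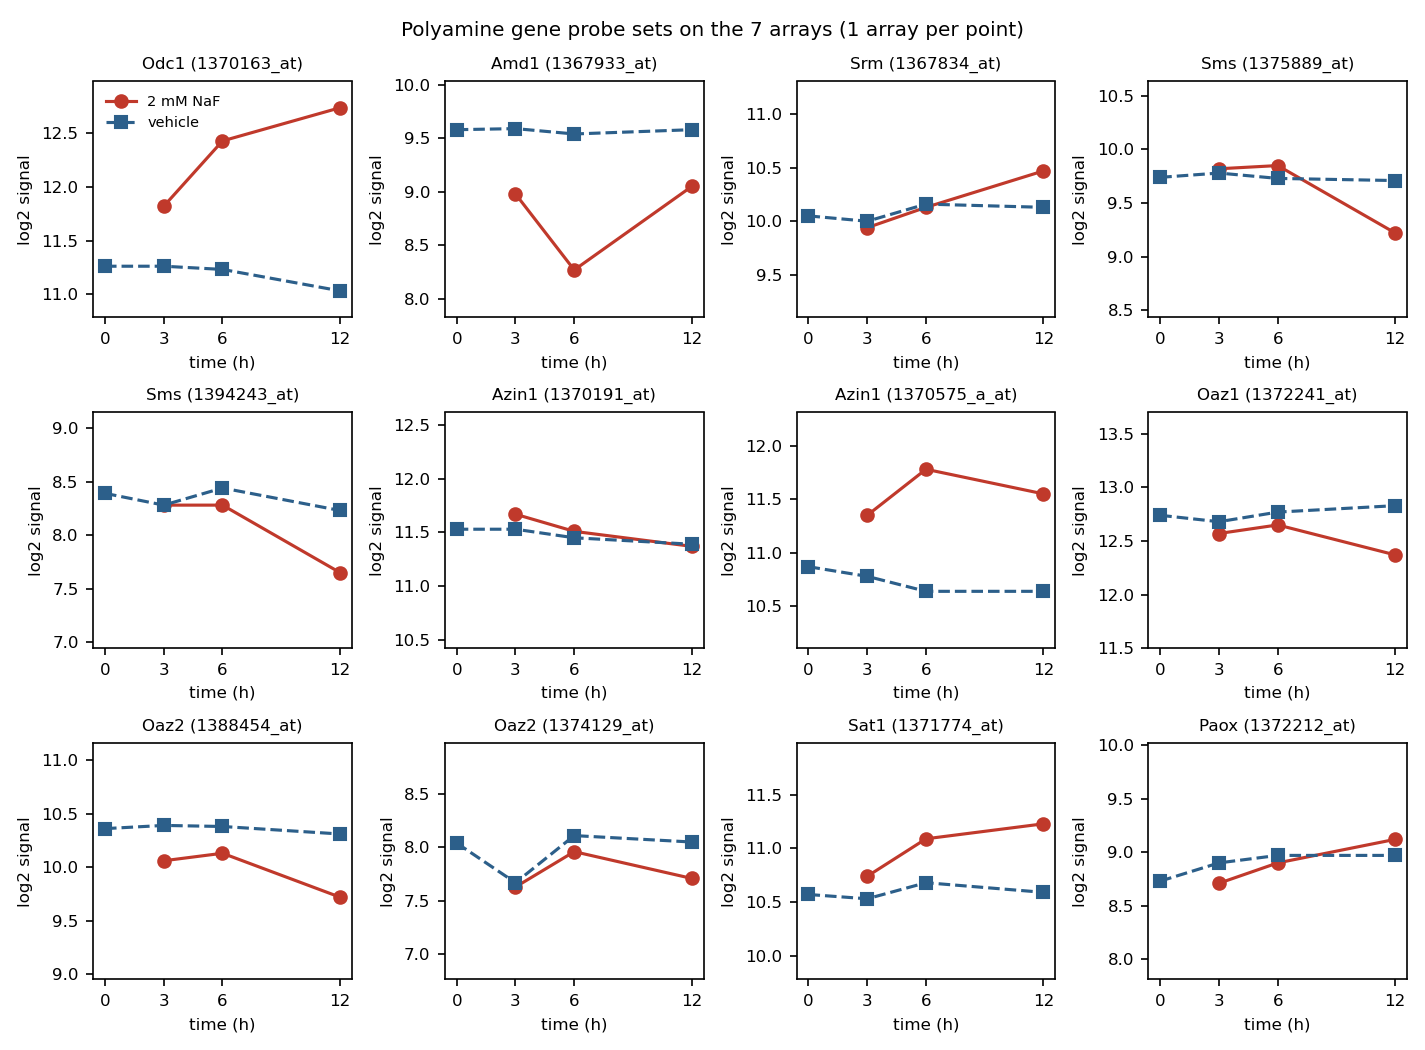
Log2 signal (vertical axes, each panel with its own range) of the tested probe sets of the 9 genes against time in h (horizontal axes), with NaF arrays as red circles and vehicle arrays as blue squares, the control array at 0 h and 1 array per point. Odc1 climbs to 12.74 at 12 h of NaF while the vehicle arrays stay between 11.03 and 11.26, and Amd1 is lowest at 6 h of NaF (8.27).

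The start regions of 4 members are shown, Odc1 and Amd1 because they were called in opposite directions at all 3 times, and Srm and Oaz1 because theirs were the ones of the member windows that held an E-box. Each window runs from 250 bases before to 50 bases after the transcript start in the RefSeq annotation of the rat genome GRCr8, 5′ to 3′ on the gene's strand, and 9 of the 10 members had a window (none for Azin1). Capitals mark every match on either strand to the E-box CACGTG bound by Myc and Max, the cAMP response element TGACGTCA, the ATF4 element core TGATGNAA, the antioxidant response element core TGACNNNGC, the TATA box TATAA and the GC box GGGCGG.
Odc1, chr6:46058415-46058714, plus strand: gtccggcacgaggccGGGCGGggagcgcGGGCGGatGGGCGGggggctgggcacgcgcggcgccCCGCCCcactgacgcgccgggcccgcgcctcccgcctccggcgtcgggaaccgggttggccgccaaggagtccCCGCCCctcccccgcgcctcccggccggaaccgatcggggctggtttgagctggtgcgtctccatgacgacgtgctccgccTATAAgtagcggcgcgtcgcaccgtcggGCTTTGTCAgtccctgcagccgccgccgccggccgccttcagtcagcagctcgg
Amd1, chr20:45265933-45266232, minus strand: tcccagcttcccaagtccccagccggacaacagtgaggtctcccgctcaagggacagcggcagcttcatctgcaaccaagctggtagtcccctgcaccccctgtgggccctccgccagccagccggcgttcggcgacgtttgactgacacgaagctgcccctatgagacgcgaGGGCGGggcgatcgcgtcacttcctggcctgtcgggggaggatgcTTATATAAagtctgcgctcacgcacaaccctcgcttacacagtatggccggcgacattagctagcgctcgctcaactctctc
Srm, chr5:164308752-164309051, plus strand: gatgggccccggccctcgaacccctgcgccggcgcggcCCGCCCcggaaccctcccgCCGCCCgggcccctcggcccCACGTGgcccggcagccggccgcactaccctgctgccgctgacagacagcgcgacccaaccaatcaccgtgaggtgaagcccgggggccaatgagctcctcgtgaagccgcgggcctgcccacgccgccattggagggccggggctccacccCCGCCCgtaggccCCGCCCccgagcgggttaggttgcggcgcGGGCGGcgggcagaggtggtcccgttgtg
Oaz1, chr7:9536941-9537240, minus strand: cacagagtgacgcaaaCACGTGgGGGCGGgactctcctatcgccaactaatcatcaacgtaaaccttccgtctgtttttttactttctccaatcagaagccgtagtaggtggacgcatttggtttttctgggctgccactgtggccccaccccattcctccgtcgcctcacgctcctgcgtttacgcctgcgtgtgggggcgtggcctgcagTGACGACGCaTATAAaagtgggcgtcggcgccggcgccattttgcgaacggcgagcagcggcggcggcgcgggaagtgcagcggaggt
The Odc1 window held no E-box. It held 5 GC boxes, a TATA box from position -32 (bases from the start) and, on the other strand, an antioxidant response element core from position -4. Amd1 held 1 GC box and a TATA box in which matches on both strands overlap, and Srm held 5 GC boxes and an E-box from position -173. Oaz1 held an E-box, a GC box, an antioxidant response element core and a TATA box. Of all 33465 windows of this length, 6.42% held the E-box, 1.83% the cAMP response element, 3.98% the ATF4 core, 12.1% the antioxidant core, 26.2% the TATA box and 33.1% the GC box. The cAMP response element and the ATF4 core were in none of the 9 windows. The matches describe letters in these windows and say nothing of binding. Sequence outside the windows was not searched, so an E-box elsewhere in Odc1 or another member would not be seen here.

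In the antizyme branch, both antizymes were lower in NaF cells at 12 h, Oaz2 at its brighter probe set but not past the threshold at its dimmer one. Nor did the probe sets of the antizyme inhibitor give 1 answer.

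Oaz2, at its brighter probe set, gave 10.06, 10.13 and 9.72 at 3, 6 and 12 h of NaF, against 10.36 on the control array and 10.39, 10.38 and 10.31 at 3, 6 and 12 h of vehicle. All NaF arrays lay below all vehicle arrays. The change was -0.30 at 3 h (limma adjusted p = 0.043), -0.23 at 6 h (0.035) and -0.64 at 12 h (0.00064), with an SE of 0.06, and the 12 h signal was 1.51-fold under same-time vehicle. The 12 h fall held under all 9 other settings (limma adjusted p = 0.00015 to 0.0052). The 3 h call was lost without any 1 of the 4 vehicle arrays (-0.32 to -0.29, limma adjusted p = 0.065 to 0.15), and the 6 h call without the 6 h vehicle array (-0.22, limma adjusted p = 0.098) or the control array (-0.23, limma adjusted p = 0.051). Within NaF cells, the 12 h level minus that of 3 h was -0.34 (SE 0.08, limma adjusted p = 0.018, and 0.055 with every probe set of the array tested) and minus that of 6 h -0.41 (SE 0.08, limma adjusted p = 0.012).

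The dimmer Oaz2 probe set was less steady. It read 7.63, 7.96 and 7.71 at 3, 6 and 12 h of NaF, against 8.04 on the control array and 7.67, 8.11 and 8.05 at 3, 6 and 12 h of vehicle, so that the 3 h vehicle array fell among the NaF arrays. No change on it passed (-0.34, -0.01 and -0.26 at 3, 6 and 12 h, SE 0.17, limma adjusted p = 0.30, 0.98 and 0.24). Without the 3 h vehicle array, the 3 h change of -0.44 (limma adjusted p = 0.037) and the 12 h change of -0.36 (limma adjusted p = 0.0092) did, in a range of 0.037 to 0.54 at 3 h and 0.0092 to 0.42 at 12 h over the 9 settings.

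Oaz1, the most widely expressed antizyme, was at 12.57, 12.65 and 12.37 at 3, 6 and 12 h of NaF, against 12.74 on the control array and 12.68, 12.77 and 12.83 at 3, 6 and 12 h of vehicle. The NaF arrays again lay below every vehicle array, by little at 3 and 6 h. The change of -0.39 at 12 h passed (SE 0.07, limma adjusted p = 0.0064; 1.38-fold under same-time vehicle), while those of -0.18 at 3 h and -0.11 at 6 h did not (limma adjusted p = 0.20 and 0.30). Its 12 h level in NaF cells differed by -0.20 from that at 3 h (limma adjusted p = 0.13) and by -0.28 from that at 6 h (limma adjusted p = 0.062, and 0.048 without the 3 h vehicle array). Antizyme is made through a frameshift that polyamines promote during translation, a step that mRNA signals do not show.

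Azin1 was covered by 3 probe sets. Its brightest read 11.67, 11.51 and 11.37 at 3, 6 and 12 h of NaF, against 11.53 on the control array and 11.53, 11.45 and 11.39 at 3, 6 and 12 h of vehicle. The groups overlapped, and the changes of 0.19, 0.03 and -0.10 (SE 0.08) did not pass (limma adjusted p = 0.21, 0.81 and 0.30). The next brightest read 11.35, 11.78 and 11.55 at 3, 6 and 12 h of NaF, against 10.87 on the control array and 10.78, 10.64 and 10.64 at 3, 6 and 12 h of vehicle. Here every NaF array lay above every vehicle array, most at 6 h. The changes were 0.62 at 3 h (limma adjusted p = 0.027), 1.04 at 6 h (0.0016) and 0.81 at 12 h (0.0017), with an SE of 0.11. Signals were 1.48, 2.19 and 1.88 times same-time vehicle. The 3 h call was lost without the 3 h (0.63, limma adjusted p = 0.066), 6 h (0.59, limma adjusted p = 0.098) or 12 h vehicle array (0.59, limma adjusted p = 0.080), with a range of 0.011 to 0.11 over 9 settings. With the 3 NaF arrays as one group the change was 0.82 (SE 0.12, limma adjusted p = 0.016), a call lost without any 1 vehicle array (0.79 to 0.87, limma adjusted p = 0.052 to 0.071) and with time as a block (0.87, limma adjusted p = 0.13). The third probe set was dim and untested, at 3.86, 3.96 and 3.91 at 3, 6 and 12 h of NaF, against 3.91 on the control array and 3.84, 3.89 and 3.96 at 3, 6 and 12 h of vehicle. Which transcripts either probe set detects was not examined here. Counted at the brightest probe set of each gene, Azin1 was not among the changed members, and counted at the other it was higher at all 3 times.

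**Figure D2:**
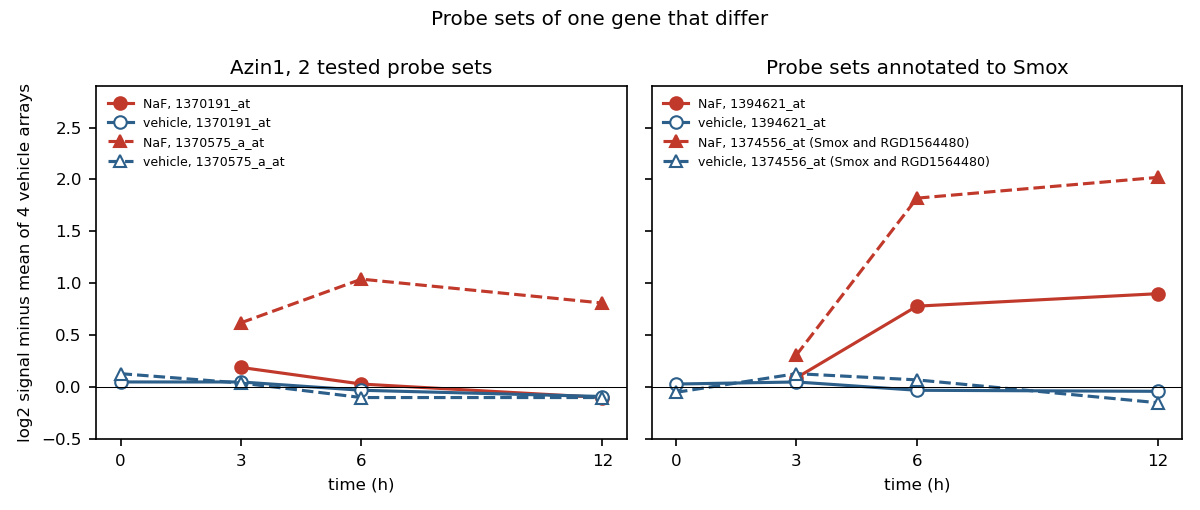
Log2 signal minus the mean of the 4 vehicle arrays (vertical axis) against time in h (horizontal axis) for the 2 tested Azin1 probe sets (left, circles the brightest) and the 2 probe sets annotated to Smox (right, circles that of Smox alone), NaF in red and vehicle in blue, 1 array per point and the control array at 0 h. The second Azin1 probe set reaches 1.04 at 6 h of NaF where the brightest is at 0.03, and the probe sets annotated to Smox stand at 0.90 and 2.02 at 12 h of NaF.

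In catabolism, the acetyltransferase Sat1, whose products are exported or oxidised, was increased from 6 h. Its log2 signal was 10.74, 11.09 and 11.23 at 3, 6 and 12 h of NaF, against 10.57 on the control array and 10.53, 10.68 and 10.59 at 3, 6 and 12 h of vehicle. The 3 h NaF array was only just above the highest vehicle array, and those of 6 and 12 h were well above it. The change of 0.15 at 3 h did not pass (limma adjusted p = 0.31), whereas the 6 h change of 0.49 (limma adjusted p = 0.0058) and the 12 h change of 0.64 (0.0012) did (SE 0.08), with signals 1.16, 1.32 and 1.57 times same-time vehicle. The increase of 0.49 between 3 h and 12 h of NaF passed (SE 0.10, limma adjusted p = 0.010). With the 3 NaF arrays as one group the change was 0.43 (SE 0.12, limma adjusted p = 0.07) and did not pass. Without the 3 h NaF array, the one of smallest change, it was 0.57 (limma adjusted p = 0.0055). Sat1 passed that fit under no other setting.

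Spermine oxidase, which turns spermine into spermidine and releases hydrogen peroxide, was seen only at low signal. The Smox probe set read 5.73, 6.41 and 6.54 at 3, 6 and 12 h of NaF, against 5.66 on the control array and 5.68, 5.60 and 5.59 at 3, 6 and 12 h of vehicle. The NaF arrays lay above the vehicle arrays, and above their mean by 0.09, 0.78 and 0.90 in order of time. Signals were 1.03, 1.76 and 1.93 times same-time vehicle. It entered a test only when every probe set of the array was fitted, with a limma adjusted p of 0.70 at 3 h, 0.0085 at 6 h and 0.0029 at 12 h.

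A further probe set is annotated both to Smox and to RGD1564480, a pseudogene, and so was assigned to neither. It read 7.01, 8.52 and 8.72 at 3, 6 and 12 h of NaF, against 6.65 on the control array and 6.83, 6.77 and 6.55 at 3, 6 and 12 h of vehicle. The step came between 3 and 6 h. The change was 0.31 at 3 h (limma adjusted p = 0.17), 1.82 at 6 h (0.00053) and 2.02 at 12 h (0.00021), with an SE of 0.12, and the 12 h signal was 4.53 times same-time vehicle. Only its 6 h and 12 h NaF arrays exceeded the cut of 7.142 for testing. It was thus tested because of the NaF signal itself, and these adjusted p values are no separate support. Which of the 2 loci gives this signal cannot be told apart on this array.

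Polyamine oxidase, Paox, which oxidises acetylated polyamines, was at 8.71, 8.90 and 9.12 at 3, 6 and 12 h of NaF, against 8.73 on the control array and 8.90, 8.97 and 8.97 at 3, 6 and 12 h of vehicle. The groups overlapped. The changes of -0.18, 0.01 and 0.23 (SE 0.11) did not pass at any time (limma adjusted p = 0.38, 0.96 and 0.12). Its 12 h level stood 0.41 above its 3 h level in NaF cells (limma adjusted p = 0.053, and 0.016 without the control array).

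**Figure D3:**
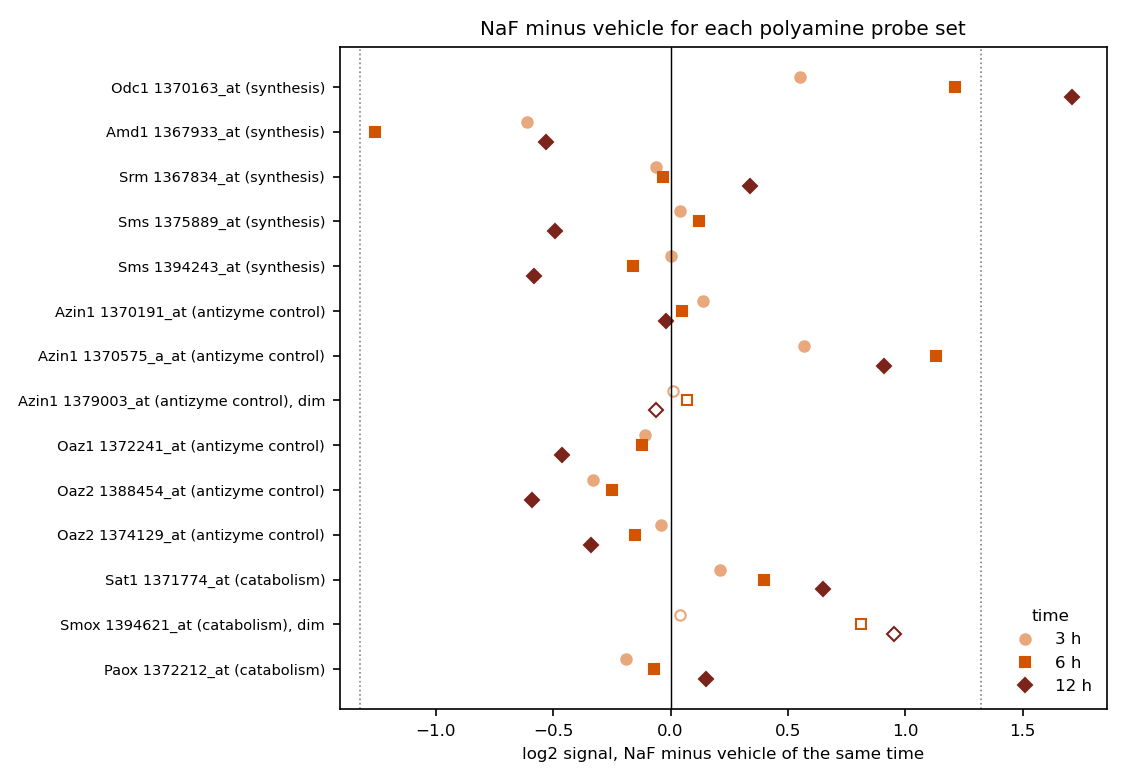
Difference in log2 signal, NaF minus same-time vehicle (horizontal axis), for the 14 member probe sets in rows, with circles for 3 h, squares for 6 h and diamonds for 12 h and open symbols for dim, untested probe sets. Each point is 1 array against 1 array, so no error bars are drawn, and dotted lines mark a 2.5-fold difference, which Odc1 at 12 h (1.71) passed on the right while Amd1 at 6 h (-1.26) lay furthest to the left.

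Each gene was counted once, at its brightest tested probe set. At 3 h, Odc1 was higher (1 of 9 genes, against 2.68% of the 7653 tested genes) and Amd1 and Oaz2 were lower (2 of 9, against 6.42%), with a member median of -0.15 and a median over all genes of -0.01. At 6 h, Odc1 and Sat1 were higher (2 of 9, against 17.0%) and Amd1 and Oaz2 lower (2 of 9, against 22.4%), with medians of 0.03 over the members and 0 over all genes. At 12 h, Odc1, Sat1 and Srm were higher (3 of 9, against 30.0%) and Amd1, Oaz1, Oaz2 and Sms lower (4 of 9, against 32.0%), with medians of -0.10 and -0.01. At 6 h and 12 h many genes of the array were called, and the counts of members lie near that background and are no result about the members as a group. The 3 h counts of 1 and 2 genes are no such result either. At 3 h the call of Odc1 was lost in 4 of 9 other settings and that of Oaz2 in 6.

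Between 3 h and 12 h of NaF, Odc1, Sat1 and Srm rose (3 of 9, against 25.3%) and Oaz2 and Sms fell (2 of 9, against 24.7%). Between 6 h and 12 h, Amd1 and Srm rose (2 of 9, against 22.2%) and Oaz2 and Sms fell (2 of 9, against 20.4%). Of the 12 tested probe sets, none was past 2.5-fold from same-time vehicle at 3 h (0.615% of all tested probe sets) or 6 h (2.51%), and 1, that of Odc1, was at 12 h (4.78%). On 3 of them (Odc1, the second of Azin1 and Sat1) all NaF arrays lay above all vehicle arrays, against 14.8% of all tested probe sets, and on 3 (Amd1, Oaz1 and the brighter of Oaz2) all lay below, against 15.1%. These small counts, like those between times, are no result about the members as a group.

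Of 42 further genes of the surrounding pathways, 39 were on the array and 24 were tested. At 3 h 0 of these were higher and 1 lower (Myc), where 2.68% and 6.42% of all tested genes were called. The counts were 5 higher and 4 lower at 6 h, where 17.0% and 22.4% of all tested genes were called, and 9 each way at 12 h, where 30.0% and 32.0% were. They lie near that background and are no result about these pathways as a group. Their median change at 12 h was 0.08, against -0.01 over all genes. Spermidine is the source of hypusine, the modified residue that activates the translation factor Eif5a. Of the 4 hypusine genes, Eif5a (0.03), Dhps (0.16) and Dohh (0.14) did not pass at 12 h, and Eif5a2, a second gene for the factor, was lower (-0.99, SE 0.09, limma adjusted p = 0.00053).

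The methionine cycle supplies the methyl and aminopropyl donor, and the salvage path returns the methylthioadenosine left by both synthases. At 12 h 3 of its 8 tested genes were higher (30.0% of all tested genes) and 4 were lower (32.0%). Mtap, which opens salvage, was higher by 0.52 (limma adjusted p = 0.012), as were Enoph1, a later salvage enzyme (0.56, 0.0024), and Ahcy, which clears S-adenosylhomocysteine (0.32, 0.0052). The salvage enzymes Mri1 (-0.71, limma adjusted p = 0.0023), Apip (-0.34, 0.013) and Adi1 (-0.89, 0.00048) were lower, as was Mat2b, the regulatory subunit of methionine adenosyltransferase (-0.31, 0.011). At 6 h Mri1, Adi1 and Mat2b were lower (-0.64, -0.31 and -0.59), and Mat2a, the catalytic subunit (0.25, limma adjusted p = 0.035), and Ahcy (0.19, limma adjusted p = 0.049) were higher. The salvage genes thus did not move one way, and Mat2a was 0.02 from the vehicle mean at 12 h.

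Ornithine comes from arginine. Arg1, which makes it, was higher at 12 h (0.40, limma adjusted p = 0.0097), and so was Oat, which draws it away to glutamate semialdehyde (0.35, limma adjusted p = 0.0092), while Asl, which makes arginine, was lower (-0.70, limma adjusted p = 0.0047). Among 5 tested transport genes, the arginine and ornithine carrier Slc7a1 gave 10.98, 10.91 and 11.98 at 3, 6 and 12 h of NaF and was higher by 1.14 at 12 h (SE 0.10, limma adjusted p = 0.00052), with 1.25 on a second probe set (limma adjusted p = 0.0016). Slc3a2, the heavy chain of several amino acid carriers, was higher by 0.97 (limma adjusted p = 0.00056). The vesicular polyamine carrier Slc18b1 (-0.57, limma adjusted p = 0.0022), the heparan sulfate proteoglycan Gpc1 (-0.32, 0.0057) and caveolin Cav1 (-0.34, 0.0044) were lower, the last with -0.36 on a second probe set that did not pass (limma adjusted p = 0.10).

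Of the transcription factors known to act on Odc1, Myc, the activator, was at 8.84, 10.71 and 11.62 at 3, 6 and 12 h of NaF. Its change was -1.89 after 3 h (SE 0.13, limma adjusted p = 0.0024) and -0.03 after 6 h (0.88), and after 12 h it was higher by 0.89 (0.0027). Mxd1, which competes with Myc for Max, was higher by 1.22 after 6 h (limma adjusted p = 0.0023) and by 0.93 after 12 h (0.0028). Max itself gave 0.12 at its brighter probe set (limma adjusted p = 0.15) and 0.82 at the other (limma adjusted p = 0.028) after 12 h, and its brighter probe set was lower after 6 h (-0.30, limma adjusted p = 0.016).

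**Figure D4:**
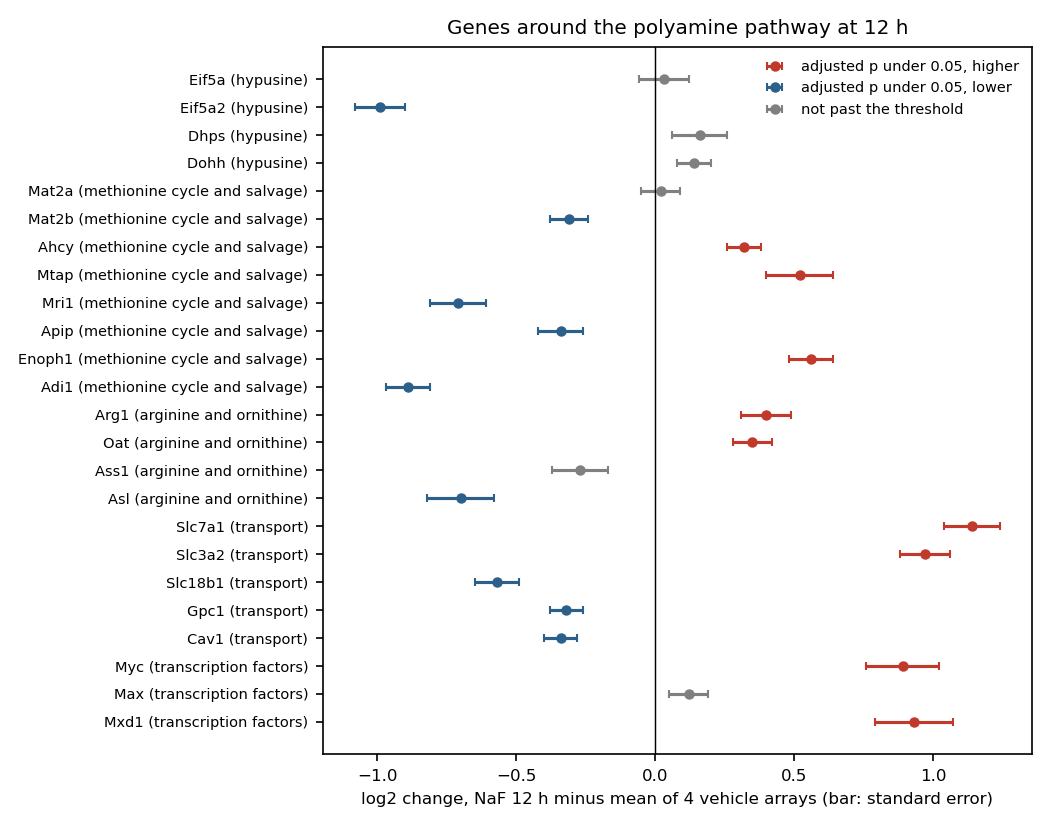
Log2 change at 12 h of NaF against the mean of the 4 vehicle arrays (horizontal axis) for the 24 tested genes around the polyamine pathway, by role, with bars for the standard error of the limma fit; red is higher and blue lower at an adjusted p under 0.05, grey did not pass. The values run from -0.99 (Eif5a2) to 1.14 (Slc7a1), with 9 genes higher and 9 lower, where 30.0% and 32.0% of all tested genes were called.

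The profiles most like that of Odc1 over the 7 arrays, by the root mean square (RMS) difference of log2 values centred on the vehicle mean, were those of Zfand2a (0.063), a zinc finger protein of the proteasome stress response, the growth factor Nrg1 (0.081), the metallothionein Mt2A (0.082), the small Maf protein Mafk (0.087) and Coq10b (0.098), a coenzyme Q-binding protein. Zfand2a, the closest, changed by 0.70, 1.15 and 1.54 at 3, 6 and 12 h of NaF. The member with the largest fall at 12 h at its brightest probe set was Oaz2, and the profiles most like it were those of Ccdc167 (0.037), Pet100 (0.047), C3h15orf48 (0.054), Sdhaf4 (0.055) and Znhit1 (0.056). These genes were picked for their likeness, so their values are a description.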

How the data were processed

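RNA of ROE2 cells was labelled by the authors, hybridized to 7 arrays and analyzed in GeneSpring GX. Its version and the normalization method are not stated in any source used here. The deposited table held log2 signals of 31099 probe sets that the authors had normalized, and these were used as deposited. Gene symbols came from the platform annotation (2016) and were updated to RefSeq: 20832 had 1 symbol, 436 several and 9831 none, and none with several symbols was assigned to a gene. The 36.6% of probe sets with the highest signal on any array (log2 7.142 or more), as many as the study counted as expressed, were fitted with limma 3.58.1 in R 4.3.3 (lmFit, eBayes, Benjamini-Hochberg), with 4 terms (vehicle, and NaF at each time), 3 residual and 2.68 prior degrees of freedom. On the log2 scale the vehicle SD had a median of 0.0794, and the standard error one of 0.0853. A further fit compared 3 NaF with 4 vehicle arrays. The contrast of 12 h with 6 h was added after the values had been seen. Genes named were all members, pathway genes called at 12 h, and the 5 profiles closest to Odc1 and to the called member of largest fall. Dhps, Dohh, Eif5a, Mat2a and Max, and the 3 h or 6 h changes of pathway genes, were named beyond that rule after their values had been seen. The members and lists were chosen with earlier results of these data known. Alternatives covered the probe sets tested, the vehicle baseline, the scaling of arrays, the probe set of a gene, time as a block, a trend in the variance, the fold threshold and each array left out. The fits were tested on simulated data. The 3′ to 5′ actin gap and marker genes were read from the same table. The number of arrays limits the precision.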

Additional observations from a re-analysis of the deposited data

Results flagged for a closer look

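On 2 of 12 member probe sets, 1 vehicle array stood apart from the other 3 by Dixon's test, which chance alone does in about 1 in 20 groups, and the 4 vehicle arrays differ in time. Odc1 read 11.03 at 12 h of vehicle, with a gap of 0.846 of the range. The 12 h fold of Odc1 (3.27) is set over that low array. Without that array Odc1 between 6 h and 12 h of NaF passed (0.30, limma adjusted p = 0.045). The difference itself did not change, as the array enters that contrast only through the spread. The dimmer Oaz2 probe set read 7.67 at 3 h of vehicle, also with a gap of 0.846 of the range.

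Tests of the difference between times within NaF cells (limma contrasts) picked out members whose signal differed between NaF arrays. These contrasts do not subtract the vehicle course, and the vehicle arrays enter them only through the spread. Between 12 h and 3 h the members were Odc1 (0.92), Srm (0.53), Sat1 (0.49), the brighter Oaz2 probe set (-0.34) and both Sms probe sets (-0.60 and -0.63). Between 12 h and 6 h they were Amd1 (0.77), Srm (0.34), the brighter Oaz2 probe set (-0.41) and both Sms probe sets (-0.63 each). The vehicle arrays of 12 h and 3 h differed by -0.23 on Odc1, 0.13 on Srm, 0.06 on Sat1, -0.08 on Oaz2, and -0.08 and -0.04 on Sms. The vehicle arrays of 12 h and 6 h differed by 0.05 on Amd1, -0.03 on Srm, -0.07 on Oaz2, and -0.02 and -0.20 on Sms.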

How the results depend on the processing

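The series holds 1 array per condition, so no setting tests the spread between NaF cultures. Of the changes of single member probe sets at 3, 6 and 12 h, 358 values under other settings kept their call or size, 19 moved with 1 vehicle array as the baseline, 17 lost the call, 2 gained it and 0 reversed a call. In 8 values of 4 changes that were not called and were no larger than 0.04, the sign turned. At 12 h 3 members were higher (3 to 3 without any 1 vehicle array) and 4 lower (4 to 4). The higher count was 4 with all probe sets tested, at the lowest-signal probe set, at the mean and with the shared Smox probe set counted, and the lower count was 3 at the lowest-signal probe set. At 3 h, higher members numbered 1, against 0 with all probe sets tested (1 at an unadjusted p under 0.05), 2 at the lowest-signal probe set, 2 at the mean over each gene's probe sets and 0 to 1 with a vehicle array left out. Lower members at 3 h numbered 2, against 1 with all probe sets tested, 1 with array medians set equal, 1 at the lowest-signal probe set, 1 at the mean and 1 to 1 with a vehicle array left out. At 6 h, 2 members were higher (2 to 2 with a vehicle array left out, and 3 under the same 4 settings) and 2 lower (1 with all probe sets tested, at the lowest-signal probe set and at the mean, and 1 to 2 with a vehicle array left out). In the fit of 3 NaF against 4 vehicle arrays, 1 member was higher and 1 lower. Higher members were 2 at the lowest-signal probe set, 2 at the mean, 0 with time as a block (limma; 2 at an unadjusted p under 0.05) and 0 to 2 with an array left out. Lower members were 0 with all probe sets tested (3 unadjusted), 0 with time as a block (2 unadjusted) and 0 to 2 with an array left out. Between 3 h and 12 h of NaF, 5 members changed, 8 with a variance trend and 5 to 6 with a vehicle array left out, and between 6 h and 12 h 4 changed, 3 to 5 with one left out. One probe set, that of Odc1 at 12 h, was past 2.5-fold (4.78% of all tested probe sets at 12 h), and 3 were past 2-fold. The shares of all genes or probe sets under these other settings were not counted. The counts of members under them are therefore no result about the members as a group. The fit with time as a block is the one that pairs NaF and vehicle arrays, and it leaves out the control array.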
